A study of Physcomitrium patens with 6 samples.

Results

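The genes described here are the late risers of the abscisic acid (ABA) response in protonema, the filamentous juvenile tissue of the moss Physcomitrium patens. Their read counts stayed near the 0 minute level for the first 30 minutes of ABA and lay above it in both libraries at 60 minutes. They number 82 of the 32926 gene IDs in the count tables and of the 18949 that passed the filter on low counts, which all 82 passed. They were chosen by measured values of all 6 libraries, so their rise, its timing and its size are a description of what was chosen and not a test.

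The 3 groups are protonema cultures collected 0, 30 and 60 minutes into ABA treatment, each with 2 biological replicates. Per the labels, the tissue was 10 days old when it was broken up by sonication, grew for 3 days in shaken liquid culture, and then received ABA or, in the controls, an equal volume of methanol. The ABA concentration is 10 µM in the series design and 10 mM in the treatment protocol. For the 0 minute cultures the labels leave unsaid when methanol was added, so ABA and time after an addition cannot be told apart. Depth ran from 12450250 to 17822775 gene reads per library. Replicates differed most at 60 minutes: the chi-square of their counts over genes was 7.15 per degree of freedom at 0 minutes, 3.39 at 30 minutes and 16.0 at 60 minutes. Marker genes of the tissue were not checked, because no ID has a name.

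ABA is the plant hormone of drought and osmotic stress. In land plants it binds PYR/PYL receptors, which then hold back PP2C phosphatases, and the SnRK2 kinases so released activate transcription factors. In mosses ABA is known for bringing on tolerance of drying and freezing, with stored sugars and late embryogenesis abundant proteins. A transcript level sums synthesis and decay, and the counts measure only that level. The count tables pair no ID with a name, and none of the IDs matched the RefSeq table used here, so the roles of the late risers are not given and no sequence is shown.

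Levels are given as CPM, a gene's reads per 1000000 gene reads after scaling each library by the trimmed mean of M values (TMM). Transcript lengths were not used, so CPM compares 1 gene between libraries and not transcript numbers between genes. The rule asked for a mean of at least 0.5 and below 100 CPM at 0 minutes, a mean of at least 3 CPM at 60 minutes, a ratio of 30 to 0 minutes from 0.77 to 1.3, and a ratio of 60 to 30 minutes of at least 1.8. It also asked that both 60 minute libraries exceed the other 4 libraries, which 25.7% of all tested genes did. Of 8033 gene IDs within the level limits and the 30 minute window, 84 reached the ratio of 1.8, and 82 of these had both 60 minute libraries highest. The 60 to 30 minute ratio thus removed nearly all of the genes that the level limits and the window had kept.

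Across the 82 genes the median level was 7.86 CPM in the 0 minute group, 7.81 CPM in the 30 minute group and 18.6 CPM in the 60 minute group. Relative to each gene's 0 minute mean, the median on the log2 scale was -0.04 and 0.03 in the 0 minute libraries, 0.14 and 0.03 in the 30 minute libraries, and 1.16 and 1.08 in the 60 minute libraries. The step therefore lay between 30 and 60 minutes in both replicates, as the rule required. In bulk tissue, a change in the number of cells of a type and a change in RNA per cell cannot be told apart. Before TMM scaling the genes together held 0.132% ± 0.00018 of the gene reads in the 0 minute group and 0.129% ± 0.0029 in the 30 minute group. In the 60 minute group the share was 0.22% ± 0.021 (SD, n = 2 in each group). Their TMM-scaled CPM summed to 1128 and 1174 in the 0 minute libraries, 1257 and 1211 at 30 minutes, and 2684 and 2594 at 60 minutes. The 10 genes with the highest CPM at 60 minutes carried 38.3% of the group's CPM at that time.

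**Figure D1:**
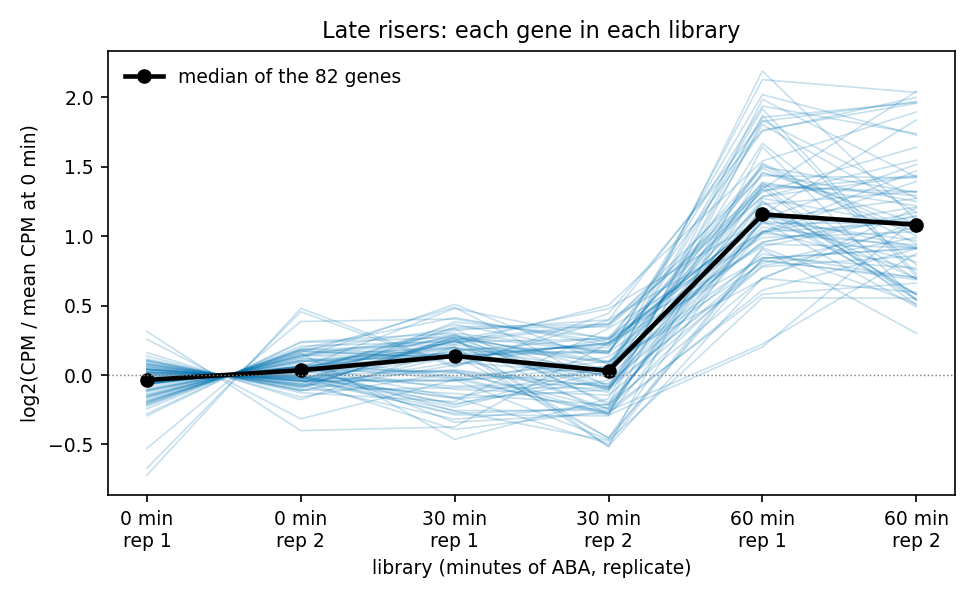
Each thin line is 1 of the 82 late risers, joining its level in the 6 libraries as log2 of CPM over its own mean CPM at 0 minutes, and the black line is the median. The medians lie between -0.04 and 0.14 in the 4 libraries of 0 and 30 minutes and at 1.16 and 1.08 in the 60 minute libraries.

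The highest CPM at 60 minutes belonged to Pp3c4_10280. Its level was 80.5 and 87.6 CPM at 0 minutes, 78.2 and 76.0 CPM at 30 minutes, and 144.2 and 152.4 CPM at 60 minutes. Both 30 minute libraries lay just below both 0 minute libraries, and the 60 minute libraries stood clear of all others. Its edgeR log2 fold change was 0.94 (SE 0.11) at 60 against 30 minutes and -0.12 (SE 0.11) at 30 against 0 minutes. With 990 reads in its shallowest library it was also among the most precisely measured of the group.

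The largest ratio of 60 to 30 minutes belonged to Pp3c4_3900. It had 8.36 and 8.33 CPM at 0 minutes, 7.11 and 8.52 CPM at 30 minutes, and 30.2 and 32.5 CPM at 60 minutes. These levels rest on 175 and 154 reads in the 0 minute libraries, 130 and 111 reads in the 30 minute libraries, and 426 and 453 reads in the 60 minute libraries. The 60 minute level was 4.02 times the 30 minute level, a log2 fold change of 2.01 (SE 0.15), with a 95% interval of the fold from 3.23 to 5.05. In proportion the replicates lay closest at 0 minutes and furthest apart at 30 minutes. The lower 60 minute library was more than 3 times any earlier library.

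The other genes are given by rank, since their IDs carry no name. The gene with the next-largest ratio, 3.98, had 5.30 and 4.55 CPM at 0 minutes, 5.41 and 5.07 CPM at 30 minutes, and 21.5 and 20.2 CPM at 60 minutes. It was the only late riser whose mean at 60 minutes was at least 4 times that at 0 minutes (4.23 times). The third by ratio, at 3.66, was also the second by level, with 35.4 and 34.8 CPM at 0 minutes, 30.5 and 34.2 CPM at 30 minutes, and 160.3 and 76.1 CPM at 60 minutes. Its 60 minute libraries were 2.11 times apart, so the size of its rise depends on which of them is read, while either lies above every earlier library.

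Most late risers rose by about 2 times. The ratio of 60 to 30 minutes was below 2 for 38 genes, from 2 to 3 for 35 and at least 3 for 9, with a median of 2.03 and a range from 1.81 to 4.02. In comparison with 0 minutes the 60 minute level was 1.47 to 4.23 times as high, with a median of 2.15. The gene just inside the rule had a ratio of 1.805 and the nearest genes outside it 1.79998, and 270 genes that met every other criterion had ratios from 1.5 to 1.8. The group is therefore the upper end of a continuous range and has no gap at its border.

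At 30 minutes the genes were spread over the whole allowed window. The ratio of 30 to 0 minutes ran from 0.778 to 1.29 with a median of 1.05, and it was above 1 for 49 genes and below 1 for 33. It lay between 0.9 and 1.1 for 37 genes, above 1.2 for 13 and below 0.85 for 9. At the upper border 589 genes met every other criterion but were already more than 1.3 times their 0 minute level at 30 minutes, while 41 were below 0.77 times that level. The nearest of these had ratios of 1.304 and 0.764.

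How flat the 30 minute level was could be measured only loosely with 2 libraries per time. The 95% interval of the 30 to 0 minute fold included 1 for 76 genes, but lay wholly within 0.77 to 1.3 for only 4. The median interval reached 1.34 times to either side of the estimate. One of the 4 was Pp3c4_10280, with an interval from 0.781 to 1.08. Another had 24.3 and 24.0 CPM at 0 minutes, 24.8 and 22.7 CPM at 30 minutes, and 41.7 and 48.0 CPM at 60 minutes, with an interval from 0.816 to 1.19. The lower bound of the 60 to 30 minute fold exceeded 1.3 for 78 of the 82 genes and exceeded 1.8 for 19.

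**Figure D2:**
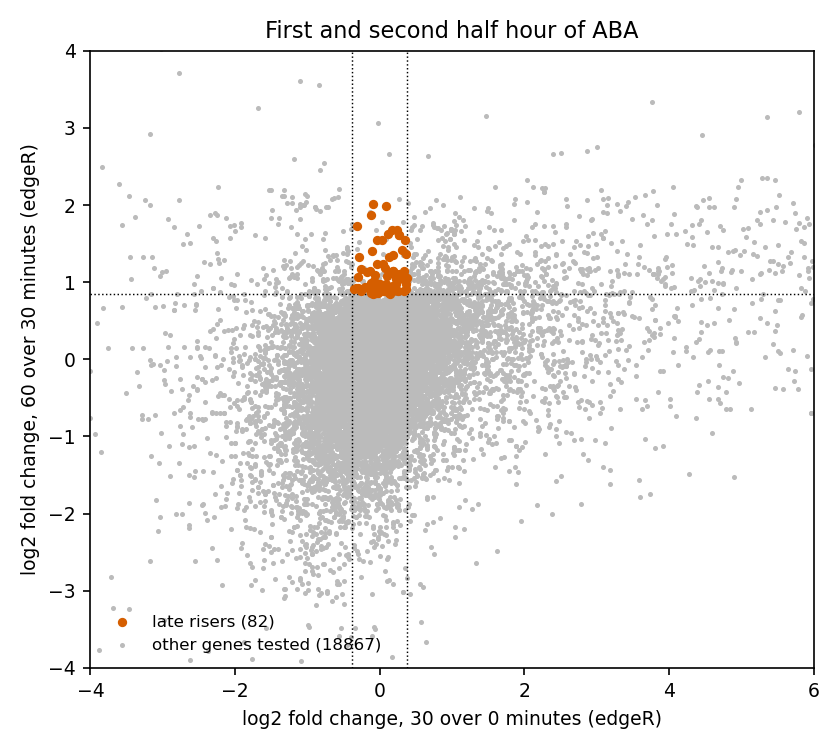
Each point is a tested gene, with its edgeR log2 fold change of 30 over 0 minutes on the x axis and of 60 over 30 minutes on the y axis. The 82 late risers lie between the dotted vertical lines at ratios of 0.77 and 1.3 and above the dotted horizontal line at 1.8, against the edge of the main cloud, and 259 genes lie outside the axes.

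Calls were made with edgeR's quasi-likelihood test over all tested genes at a Benjamini-Hochberg adjusted p below 0.05. At 60 against 30 minutes all 82 late risers were called higher, as were 17.4% of all tested genes, and at 60 against 0 minutes all 82, against 28.4%. At 30 against 0 minutes 2 were called, both higher, against 36.4% of all tested genes called in either direction. The rule used these same contrasts, so nothing further is read from these counts. The 2 genes called at 30 minutes stood near the top of the window, with ratios of 1.28 and 1.29. The first had 39.8 and 37.7 CPM at 0 minutes, 49.3 and 49.8 CPM at 30 minutes, and 104.8 and 103.7 CPM at 60 minutes, so that its small early step exceeded the spread of its replicates. The 80 other genes made up 5.56% of the 1440 genes with no call at 30 against 0 minutes that were called higher at 60 against 30 minutes.

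The late risers are few beside the genes with an earlier increase, and their ratios are modest. With the same level limits, 538 genes reached at least 1.8 times the 0 minute level by 30 minutes and then held within 0.77 to 1.3 times (the early group). A further 482 genes were at least 1.8 times higher in each interval (the stepwise group). In both groups every 30 and 60 minute library also had to exceed both 0 minute libraries. The stepwise group further required that both 60 minute libraries exceed the other 4. The median ratio of 60 to 0 minutes was 2.15 for the late risers, 2.87 for the early group and 14.6 for the stepwise group. The 60 minute mean was at least 4 times the 0 minute mean for 1 of 82, 177 of 538 and 461 of 482 genes. Starting levels were similar in scale, with medians of 7.86, 10.8 and 5.54 CPM at 0 minutes. The limits of each group bound these ratios, and the differences were not tested.

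Among themselves the late risers covered a wide range of levels. At 0 minutes 31 genes lay from 0.5 to 5 CPM, 30 from 5 to 20 and 21 from 20 to 100, which is 0.764%, 0.4% and 0.374% of the tested genes at those levels. The median ratio of 60 to 30 minutes was 2.17, 1.96 and 2.0 in these bands, and the median SE of its log2 was 0.23, 0.16 and 0.14. The largest share of late risers and the largest median ratio thus lay where the counts were fewest and the error widest. The part of counting error in this order was not tested. The lowest count of any late riser in any library was 16, and 57 genes had at least 50 reads in every library.

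**Figure D3:**
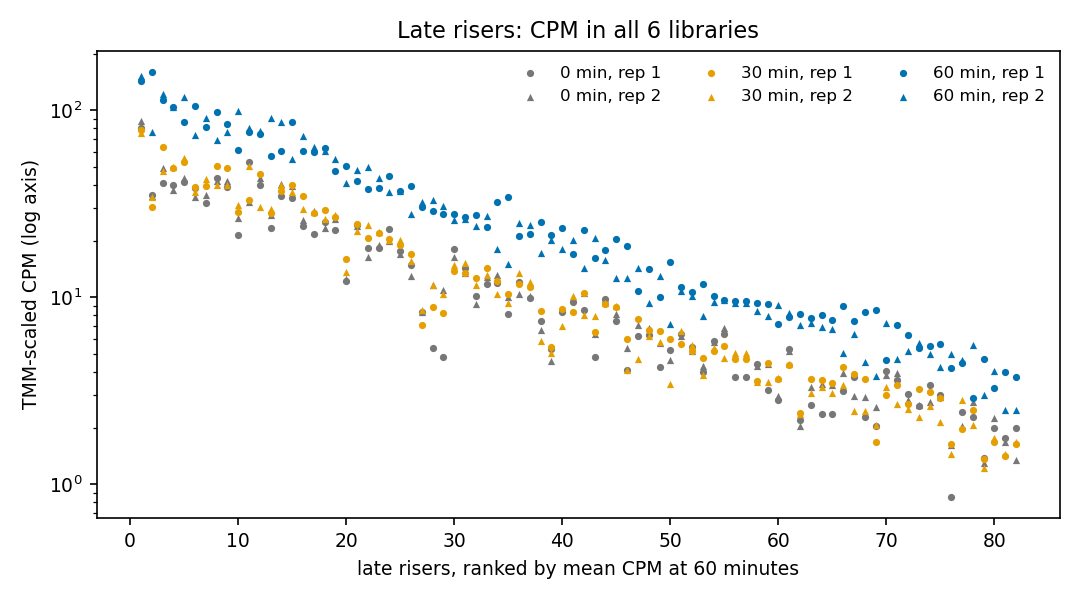
The TMM-scaled CPM of each late riser in all 6 libraries is plotted on a log axis, with genes ranked by mean CPM at 60 minutes, from 148.3 CPM at the left to 3.14 at the right. Both 60 minute libraries stand above the 0 and 30 minute libraries in every gene, and the gap between the 60 minute replicates widens for some genes.

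The replicates at 60 minutes did not agree equally for every gene. Replicate 1 was higher at 60 minutes for 48 late risers and replicate 2 for 34, and their median distance on the log2 scale was 0.14 at 0 minutes, 0.16 at 30 minutes and 0.22 at 60 minutes. Tested genes in the same range of starting levels had median distances of 0.13, 0.12 and 0.22 at those times. For 18 late risers the 60 minute libraries were at least 1.5 times apart, with replicate 1 higher in 14 of them. A gene of this kind had 8.17 and 10.0 CPM at 0 minutes, 10.4 and 9.29 CPM at 30 minutes, and 34.4 and 15.1 CPM at 60 minutes. The opposite order was widest in a gene with 2.29 and 2.76 CPM at 0 minutes, 2.51 and 2.07 CPM at 30 minutes, and 2.91 and 5.53 CPM at 60 minutes, where replicate 1 at 60 minutes was only 1.05 times the highest earlier library. Without the 18 genes the median ratio of 60 to 30 minutes was 2.01.

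Only a choice made on part of the libraries leaves values that the rule did not use. The rule was therefore applied to the 3 libraries numbered 1, and the chosen genes were read in the 3 libraries numbered 2. It chose 153 genes, of which only 48 were among the 82 late risers. Their median ratio of 60 to 30 minutes was 2.07 in the libraries that chose them. In the unused libraries the median was 1.56, 145 of 153 genes (94.8%) were higher at 60 than at 30 minutes, and 51 (33.3%) reached 1.8. Among all 13771 genes of the same level limits 52.1% were higher and 6.35% reached 1.8 there. Among 7870 genes that were flat at 30 minutes in the choosing libraries but not chosen, 0.877% reached it. That last set leaves out the flat genes that reached 1.8 in the choosing libraries, so its low share is partly set by the choice. Hence a higher level at 60 than at 30 minutes was seen again in most of the 153 chosen genes, at a smaller size. About 1 in 3 reached the bar, and 29 (19%) both reached it and had a flat start.

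Chosen on replicate 2 and read in replicate 1, the rule gave a like picture. It chose 146 genes, of which 54 were among the 82 late risers. In the unused libraries 144 of the 146 (98.6%) were higher at 60 than at 30 minutes, with a median ratio of 1.63, and 53 (36.3%) reached 1.8. Among all 13600 genes of the same level limits 53.5% were higher and 5.98% reached 1.8. The share of chosen genes with a flat start was below that of all genes of the same level limits in replicate 2 and close to it in replicate 1, a difference that was not tested. In replicate 2, 68 of the 153 genes (44.4%) lay within 0.77 to 1.3 at 30 minutes, against 54.3% of all, with a median ratio of 0.88 to 0 minutes. In replicate 1, 86 of the 146 (58.9%) did, against 58.6% of all, with a median of 1.2. Genes that were flat in the choosing libraries but not chosen kept a flat start more often. In replicate 2, 78.3% of 7870 such genes did, and in replicate 1, 83.8% of 7344, which was not tested either. Both features together were met by 29 genes in each direction (19.0% and 19.9%), against 1.05% and 1.03% of all genes of the same level limits.

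Of the 82 late risers, 28 met the rule in replicate 1 alone and in replicate 2 alone, 46 in only 1 of them, and 8 in neither, where the mean of both libraries met what no single replicate did. Each reading rests on 1 library per time, so it has no test. The scaling factors came from all 6 libraries, and the replicate numbers are names that the labels do not tie to a shared culture or day.

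**Figure D4:**
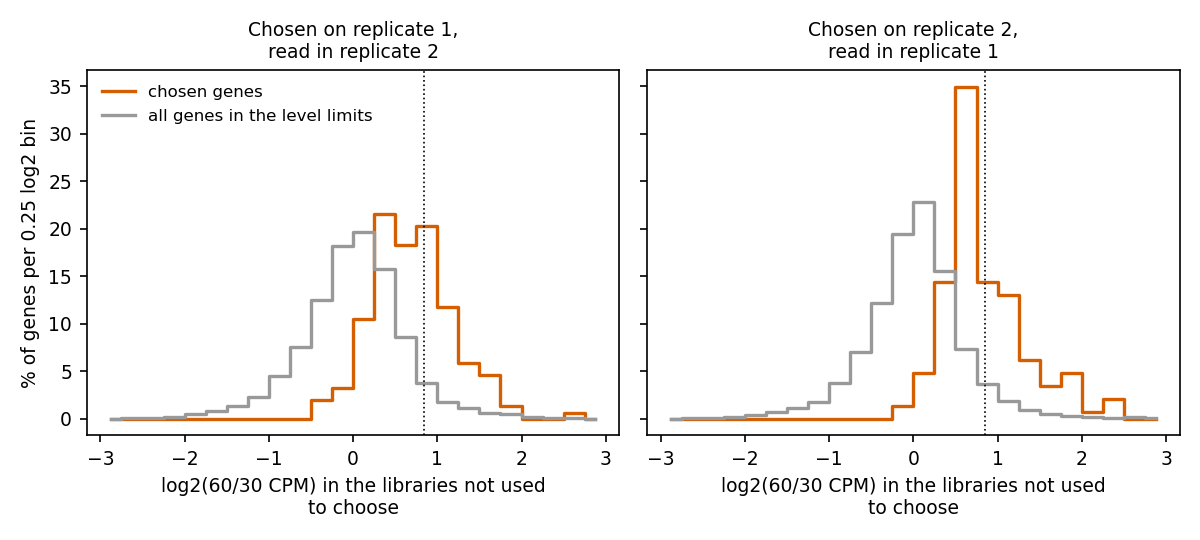
The share of genes per bin of the log2 ratio of 60 to 30 minutes is shown in the 3 libraries that were not used to choose, for the chosen genes and for all genes of the same level limits. The dotted line marks a ratio of 1.8, which 33.3% and 36.3% of the chosen genes reached, against 6.35% and 5.98% of all.

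The IDs offer what the rule did not use. Late risers carried 25 of the 27 Pp3c prefixes, plus 1 gene with a Pp3s prefix, and no prefix held more than 8. That prefix, Pp3c2, had 8 late risers among 1148 tested genes (0.697%), while Pp3c24 and Pp3c25 had none among 563 and 388. The group was thus spread over nearly all prefixes.

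Some late risers had IDs next to each other in the numbering, and several of these may not be separate measurements. A pair with adjacent IDs had the same counts in all 6 libraries, which held for 1.65% of tested genes with some other gene, and a run of 3 adjacent IDs had counts within 1.12 times of each other in every library. A further pair, 2 places apart, had 5.35 and 11.7 CPM at 0 minutes, 8.86 and 11.6 CPM at 30 minutes, and 29.0 and 33.1 CPM at 60 minutes in 1 gene, and 4.78 and 11.0, 8.26 and 10.4, and 28.0 and 30.9 CPM in the other. How the counting treated reads that fit overlapping genes or near-identical copies is not stated in the labels or the tables, and the summary row for ambiguous reads was 0. Keeping 1 ID of each such pair or run left 78 genes, with a median ratio of 60 to 30 minutes of 2.01. Near-equal counts also occurred between late risers of different prefixes, where 8 pairs lay within 1.2 times in every library, the closest, a Pp3c22 ID and the Pp3s ID, within 1.09 times. Whether reads are shared in any of these pairs was not tested.

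The IDs directly beside the late risers were also read. Of 98 tested neighbours that were not late risers themselves, 31 (31.6%) were called higher at 60 than at 30 minutes in edgeR's test, against 17.4% of all tested genes. Around the early group 20.9% of 626 tested neighbours were so called, and around the stepwise group 20.1% of 566. Beside any gene called higher at 60 than at 30 minutes the share was 26.7%. The median neighbour did not move with the group, with a log2 fold change of 0.05 against 0.01 for all tested genes. No test was made of these differences, and shared reads between neighbouring genes were not tested as their source. With total counts alone 14 neighbours (14.3%) were called higher, against 6.75% of all tested genes. Without replicate 1 at 30 minutes 18 (18.0%) were, against 8.5% of all, and without replicate 2 at 30 minutes 17 (17.0%), against 9.11%.

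Which genes count as late risers depended on how libraries were scaled. TMM factors were 1.17 and 1.13 for the 0 minute libraries, 1.04 and 1.05 for the 30 minute libraries, and 0.875 and 0.793 for the 60 minute libraries, so they move in step with time. With total counts alone the rule was met by 32 genes, 18 of them among the 82, and with upper-quartile factors by 83, of which 43 were among the 82. DESeq2's size factors kept all 82 and added 15 others. For the 60 against 30 minute comparison, the middle of the tested genes lay at a log2 fold change of 0.01 under TMM, -0.31 under total counts and -0.09 under upper-quartile scaling. Scaling shifts every gene of a library by the same factor, and relative to the median of all tested genes the late risers were 1.0 higher on the log2 scale at 60 against 30 minutes and 0.1 higher at 30 against 0 minutes. Under each of the 4 scalings all 82 were higher at 60 than at 30 minutes, with a lowest ratio of 1.45 with total counts alone. The choice of a ratio of at least 1.8 under TMM nearly fixed this, since a scaling shifts all genes of a library alike. The direction at 30 against 0 minutes did turn, with a median ratio of 1.05 under TMM, 0.956 when libraries were scaled by total counts and 0.887 under upper-quartile scaling. The median of all tested genes shifted in the same way, at 0.989, 0.896 and 0.833, and stayed below that of the late risers each time.

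Single libraries mattered as well. Without replicate 1 or 2 at 60 minutes 139 genes met the rule in each case, 59 and 67 of them among the 82, with only 1 library at 60 minutes left to meet the rule. Leaving out a 30 minute library gave 104 and 103 genes, with 64 and 58 of the 82, and leaving out a 0 minute library gave 93 and 89, with 76 and 65. In all, 24 of the 82 genes met the rule whichever library was left out, and 12 of these also met it with total counts alone.

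**Figure D5:**
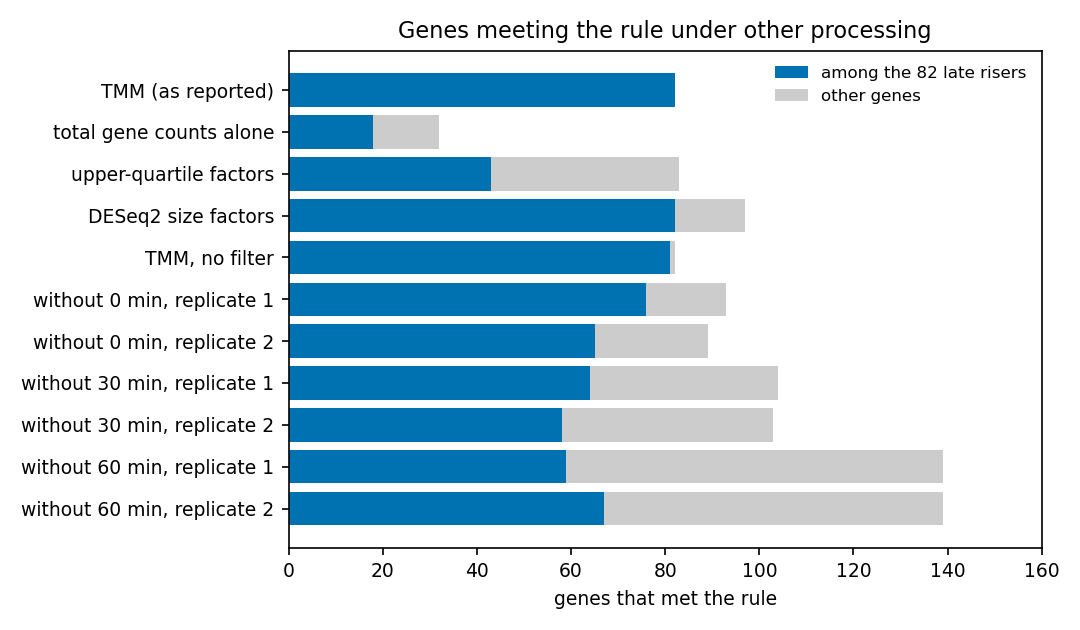
Bars give the number of genes that met the rule under each scaling and with each library left out, divided into genes among the 82 late risers and other genes. Total counts alone gave 32 genes with 18 of the 82, and leaving out either 60 minute library gave 139.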

How the data were processed

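The authors deposited 1 table of raw read counts per gene and library. Per the submitters' processing notes, cutadapt, TopHat, HTSeq and DESeq2 were used, without versions or roles. The genome build, annotation and strand setting are not given in any source used here. The 5 summary rows, which name no gene and took 1.66% to 2.14% of each table, were left out. Genes passed edgeR's filterByExpr (minimum count 10, minimum total 15). Library sizes were gene totals times TMM factors. One edgeR quasi-likelihood model of the 3 times (edgeR 4.0.16, R 4.3.3, 3 residual degrees of freedom) was fitted to all 6 libraries, and p-values were adjusted by Benjamini-Hochberg over 18949 genes. SEs of log2 fold changes were derived from the F statistic. The code was tested on simulated data. None of the IDs matched the 27567 RefSeq genes (ASM5946719v1).

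The late risers and the comparisons were chosen with earlier results of these data known. IDs were named by rule: the highest CPM at 60 minutes and the largest 60 to 30 minute ratio, all others being given by rank or place. The comparison groups, the level bands, the neighbouring IDs, the near-equal counts and the replicates 1.5 times apart were added after values were seen. Alternatives were other scalings, DESeq2 1.42.0, other filters, a replicate block and each library left out.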

Additional observations from a re-analysis of the deposited data

Results flagged for a closer look

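The effects at 60 and at 30 minutes, each against 0 minutes, differed for 82 of the 82 late risers by edgeR's quasi-likelihood test of 60 against 30 minutes with Benjamini-Hochberg adjustment. The rule chose the genes for this difference, so the count carries no further weight. No other value met a criterion for a closer look: with 2 libraries per time, single outlying libraries could not be assessed.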

How the results depend on the processing

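The number of late risers was 32 with total counts alone, 52 with a narrower 30 to 0 minute window, 18 with a 60 to 30 minute ratio of at least 2.5, and 89 to 139 with 1 library left out. It stayed within 1.5 times of 82 with the other scalings and with no filter. Their share of gene counts at 60 minutes was 0.22%, 0.0919% when chosen with total counts alone, and 0.204% to 0.467% when chosen with 1 library left out. With other scalings, other filters and a replicate block, 66 to 82 late risers were called higher at 60 against 30 minutes, and 57 to 82 at 60 against 0 minutes. The lowest came with total counts alone, where calls over all tested genes also fell, from 17.4% to 6.75% and from 5383 to 2832 genes. Across these settings 1280 to 3744 of all tested genes were called higher at 60 against 30 minutes, and 2832 to 5632 at 60 against 0 minutes. At 30 against 0 minutes calls over all tested genes numbered 6899. They numbered 7128 with total counts alone, 9221 with upper-quartile factors, 5296 with DESeq2 and 5795 with the stricter filter. The rule chose the late risers on these contrasts, so their counts carry no further weight. Calls at 30 against 0 minutes numbered 2, both higher, but 1 (lower) with total counts alone, 5 (all lower) with upper-quartile factors, 1 with DESeq2, 1 with the stricter filter, and 0 to 9 with 1 library left out. Neighbours called higher numbered 31 (31.6%, against 17.4% of all tested genes), but 14 with total counts alone (14.3%, against 6.75%) and 17 to 32 with 1 library left out (17.0% to 32.3%, against 8.5% to 21.9%). Genes chosen on replicate 1 reached 1.8 in replicate 2 in 33.3%. With total counts alone 30.2% of 53 chosen genes did, against 2.74% of all genes of the same level limits. Chosen on replicate 2 and read in replicate 1, the share was 36.3%. With total counts alone it was 53.8% of only 26 genes, against 3.19% of all.

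With a replicate block 4 late risers were called at 30 against 0 minutes, beside 7588 of all tested genes. The other 2 contrasts kept 82, beside 3744 of all called higher at 60 against 30 minutes and 5632 at 60 against 0. For deviations of replicates of the same number, r across genes was -0.06 between 0 and 30 minutes and 0.02 between 0 and 60 minutes. It was 0.26 between 30 and 60 minutes, the comparison that defines the group. As the replicates did not deviate together in every comparison of times, the main fit did not treat them as paired. Depth limits the low band most, where a library can hold 16 reads of a gene. The causes of these shifts were not tested.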
